A study of Mus musculus with 14 samples.

Results

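A set of 37 genes used to recognise microglia and the complement components of the brain was followed in cortex and hippocampus of mice whose neurons had been depleted of TRF2. The genes were chosen by name from common knowledge of microglia, with earlier results of these data already known. Each deposited table lists all 37 among 20492 gene symbols. The level of a gene is its FPKM (fragments per kilobase of transcript, scaled to the size of the library) summed over its coding-sequence rows. At least 0.2 FPKM in 1 condition was required before a ratio was formed, which kept 33 of the 37 genes in cortex and 34 in hippocampus. C3, Itgax and Clec7a stayed under that minimum in both tissues, and Cst7 was kept in hippocampus through its TRF2-depleted value alone. The genes were divided by known role into 13 genes of resting microglia, 10 genes shared by microglia and other myeloid cells (called pan-myeloid below), 5 complement genes and 9 genes known to be raised in activated microglia.

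Microglia are the resident macrophages of the brain. They survey the tissue through receptors for nucleotides, chemokines and lipids, and in injury or degeneration they lower many of the genes of the surveying state and raise others for lipid handling and engulfment, under control of the receptor Trem2 and its adapter Tyrobp. Microglia are also the main brain source of C1q, the recognition component of the classical complement cascade, which tags synapses and debris for removal.

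TRF2, encoded by Terf2, is a subunit of the shelterin complex that caps telomeres. The study took 4 control and 3 TRF2-depleted samples of cortex and 3 control and 3 TRF2-depleted samples of hippocampus from C57BL/6 mice aged 3 months, with Cre driven by Dcx, a gene of newborn neurons. The Cre is thus directed at the neuronal lineage and not at microglia. A further TRF2-depleted sample carries labels for both tissues and was placed in no group, and whether it entered the deposited cortex or hippocampus values is not known. The hippocampus table also holds a condition named DKO that no label describes, and it is reported under that name with no statement of its genotype. Controls are described as control or wild type only, and nothing ties samples to animals. The authors pooled the samples of a condition into a single value per row, so no spread between samples can be given and the depth of the samples is unknown. Differences were read against the authors' deposited test, with a q of 0.05 or less as the threshold.

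Terf2 itself stood at 3.59 FPKM in controls and 0.202 FPKM in TRF2-depleted cortex (p = 0.105, q = 0.576 in the authors' deposited table), and at 2.01, 0.883 and 0.753 FPKM in control, TRF2-depleted and DKO hippocampus, where the authors made no test. Neuron, astrocyte, oligodendrocyte and endothelial markers had no member past the threshold in any comparison. Of these 8, 10, 8 and 3 to 5 were tested, where 0.153% to 0.323% of all genes were called. At an unadjusted p under 0.05 there were 2 oligodendrocyte and 1 endothelial markers in cortex. TRF2-depleted against control hippocampus had 1 astrocyte and 1 neuron marker. Astrocytes had 2 in DKO against control and 1 in DKO against TRF2-depleted. Of all genes 6.6%, 5.21%, 7.18% and 5.08% had such a p. Choroid plexus markers differed widely between the pooled values. Their 8 genes summed to 98.7 FPKM in controls and 2.77 FPKM in TRF2-depleted cortex, and to 281, 499 and 10.8 FPKM in control, TRF2-depleted and DKO hippocampus. Meningeal fibroblast markers summed to 292 and 262 FPKM in cortex and to 202, 316 and 325 FPKM in hippocampus. The part of these tissue differences in the values of the microglia genes was not tested.

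All 23 resting and pan-myeloid genes exceeded 0.2 FPKM in both control tissues. That minimum is low, and 13684 of 20492 genes in cortex and 14096 in hippocampus reached it in at least 1 condition. Detection in whole tissue does not show which cells the values come from. In control cortex they ran from 0.961 FPKM for P2ry12 to 17.9 FPKM for Ctss, and in control hippocampus from 1.26 FPKM for Siglech to 21.0 FPKM for Ctss. Border macrophage markers, which mark the macrophages of meninges and vessels, were lower. Their 8 genes together summed to 4.54 FPKM in control cortex and 3.87 FPKM in TRF2-depleted cortex and to 3.47, 3.61 and 3.94 FPKM in the hippocampal conditions, and none was tested. Markers of blood monocytes, neutrophils and lymphocytes were near 0, with 13 genes summing to 0.553 and 1.10 FPKM in cortex and to 0.153, 2.14 and 0.346 FPKM in hippocampus. Ccr2, which defines blood monocytes, stayed under 0.2 FPKM throughout, and Cd3e of T cells was listed at 0 in all conditions but TRF2-depleted hippocampus, where it stood at 0.0615 FPKM. In whole tissue, a lower value can come from fewer microglia or from less RNA per microglia, and these cannot be told apart.

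The C1q chains are encoded side by side on chromosome 4, with C1qb at chr4:136880130-136886177, C1qc at chr4:136889802-136892914 and C1qa at chr4:136895916-136898844 in mm10, the build of the files. Myeloid promoters are known to be bound by PU.1, a factor encoded by Spi1 whose sites hold the purine-rich core GAGGAA. The 250 bases before the start of transcription of 4 of the genes are printed here, 5′ to 3′ on the strand of the gene, from RefSeq on GRCm38.p6. They show neighbouring C1q genes, a pan-myeloid gene with the core near its start and a resting gene without it. Capitals mark GAGGAA or its reverse complement TTCCTC. C1qb is from chr4:136886201-136886450 on the minus strand, C1qc from chr4:136892915-136893164 on the minus strand, Laptm5 from chr4:130913066-130913315 on the plus strand and Cx3cr1 from chr9:120068297-120068546 on the minus strand.
C1qb: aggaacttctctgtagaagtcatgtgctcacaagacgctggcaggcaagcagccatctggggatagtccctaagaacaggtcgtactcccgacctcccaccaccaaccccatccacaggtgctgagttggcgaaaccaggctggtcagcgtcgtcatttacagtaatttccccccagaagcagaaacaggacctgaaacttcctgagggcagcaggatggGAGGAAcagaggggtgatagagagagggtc
C1qc: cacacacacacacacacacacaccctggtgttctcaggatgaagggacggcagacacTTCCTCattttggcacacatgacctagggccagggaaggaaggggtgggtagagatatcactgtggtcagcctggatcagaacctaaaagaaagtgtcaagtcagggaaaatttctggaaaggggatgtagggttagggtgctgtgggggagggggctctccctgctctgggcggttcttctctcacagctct
Laptm5: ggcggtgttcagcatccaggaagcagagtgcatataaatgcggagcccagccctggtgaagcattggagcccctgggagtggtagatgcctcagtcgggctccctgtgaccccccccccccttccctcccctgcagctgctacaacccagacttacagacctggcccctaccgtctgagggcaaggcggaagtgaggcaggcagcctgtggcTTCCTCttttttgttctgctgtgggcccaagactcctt
Cx3cr1: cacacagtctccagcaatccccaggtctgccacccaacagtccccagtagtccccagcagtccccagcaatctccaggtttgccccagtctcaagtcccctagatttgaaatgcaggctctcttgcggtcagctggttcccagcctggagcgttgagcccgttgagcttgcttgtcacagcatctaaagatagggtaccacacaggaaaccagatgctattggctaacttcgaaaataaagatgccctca

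The match begins 30 bases before the start in C1qb, 193 in C1qc and 38 in Laptm5. Of all 32851 RefSeq promoter windows of this length, 23.3% held GAGGAA on either strand, a string that itself contains the shorter GGAA core of the wider ETS family. The microglia and complement genes had 36 windows for 29 genes, and 18 windows held it. By class these were 2 of 11 windows of resting genes, 8 of 10 of pan-myeloid genes, 2 of 3 of complement genes and 6 of 12 of activated genes. The resting genes Csf1r, Gpr34, Selplg and Tmem119 had no window, nor did Tyrobp, C1qa, C4b and Lpl, so the class counts are partial. The printed genes do not stand for their classes. The resting genes Fcrls and P2ry13 held the string, and the pan-myeloid gene Ly86 did not. A match describes the letters only and says nothing of binding.

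Resting genes are those that mark microglia in the undisturbed brain. Their 13 levels together came to 47.3 FPKM in controls and 46.4 FPKM in TRF2-depleted cortex, and to 68.4, 63.8 and 68.8 FPKM in control, TRF2-depleted and DKO hippocampus. Cx3cr1, the receptor for the neuronal chemokine fractalkine, stood at 4.19 FPKM in controls and 3.89 FPKM in TRF2-depleted cortex, and at 4.92, 4.62 and 6.04 FPKM in control, TRF2-depleted and DKO hippocampus, the order used for all values that follow. It was lowest in TRF2-depleted and highest in DKO hippocampus. Tmem119, a membrane protein that sets microglia apart from other macrophages, followed the same order in hippocampus, with 5.20, 4.61 and 6.82 FPKM, while cortex held 4.75 and 5.02 FPKM. Csf1r, the receptor on which microglial survival depends, stood at 7.26 and 5.99 FPKM in cortex and at 11.8, 10.7 and 11.9 FPKM in hippocampus.

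The nucleotide receptors were measured less evenly. P2ry12, the ADP receptor that guides microglial processes to injury, stood at 12.3, 11.1 and 11.3 FPKM in control, TRF2-depleted and DKO hippocampus. In cortex it was 0.961 FPKM in control and is listed at 0 in the TRF2-depleted group, with no test made. Its deposited locus, on chromosome 3, is shared with 6 other genes, among them its paralog P2ry13 and the long gene Med12l, within whose introns it lies. Med12l stood at 1.16 and 1.08 FPKM in cortex and at 1.83, 0.230 and 2.38 FPKM in hippocampus. The division of reads among these overlapping genes is therefore uncertain, and the 0 for P2ry12 is not read as absence. P2ry13, a related ADP receptor, was present in both cortical groups, at 1.89 and 1.85 FPKM, and at 2.56, 1.94 and 2.33 FPKM in hippocampus.

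Siglech, a sialic acid-binding lectin of microglia, gave the widest hippocampal contrast of the class. It stood at 1.26 FPKM in control, 0.383 FPKM in TRF2-depleted and 1.21 FPKM in DKO hippocampus, a log2 ratio of -1.72 between TRF2-depleted and control, and the authors made no test at this level. In cortex the order was the opposite, with 2.10 FPKM in controls and 2.62 FPKM in the TRF2-depleted group (p = 0.19 in the authors' deposited table). Fcrls, an Fc receptor-like scavenger protein, stood at 4.26 and 5.32 FPKM in cortex and at 5.18, 5.16 and 4.01 FPKM in hippocampus. Gpr34, a lysophosphatidylserine receptor, stood at 5.24 and 6.32 FPKM in cortex and at 5.20, 5.73 and 4.19 FPKM in hippocampus, so that DKO was the lowest hippocampal condition for both. Gpr34 shares its locus with Cask and Gpr82, and Olfml3 shares its own with 7 genes, which makes the division of their reads uncertain too.

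Sall1, a transcription factor that maintains microglial identity, was slightly higher in the TRF2-depleted groups of both tissues, at 2.20 and 2.59 FPKM in cortex and 2.46, 2.91 and 2.55 FPKM in hippocampus. Mertk, a receptor tyrosine kinase for the engulfment of dying cells, was lower, at 2.03 and 1.54 FPKM and at 2.24, 2.07 and 1.85 FPKM. Itgb5, an integrin subunit, stood at 5.83 and 5.10 FPKM in cortex and at 6.44, 6.84 and 7.92 FPKM in hippocampus. Of the remaining resting genes, Selplg (the selectin ligand) stood at 3.02 and 2.83 FPKM in cortex and at 3.61, 3.34 and 4.25 FPKM in hippocampus, and Olfml3, a secreted glycoprotein, at 3.50 and 3.30 FPKM and at 5.21, 4.35 and 4.40 FPKM. Mertk was not tested in cortex, and none of the differences tested for these genes passed the threshold.

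Pan-myeloid genes summed to 57.3 FPKM in controls and 54.4 FPKM in TRF2-depleted cortex, and to 55.5, 62.4 and 65.3 FPKM in control, TRF2-depleted and DKO hippocampus. Tyrobp, the signalling adapter of Trem2, showed the opposite order in the tissues, with 11.2 and 8.15 FPKM in cortex and 7.69, 9.94 and 10.9 FPKM in hippocampus. Aif1, which encodes the histological marker Iba1, did likewise, with 2.98 and 2.33 FPKM in cortex and 2.27, 3.01 and 3.23 FPKM in hippocampus. Trem2, the lipid-sensing receptor of activated microglia, stood at 3.40 and 2.75 FPKM in cortex and at 3.40, 3.44 and 3.86 FPKM in hippocampus, a smaller spread than that of its adapter.

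Ly86, a secreted partner of a Toll-like receptor homolog, was higher in each TRF2-depleted group and in DKO. Its values were 2.74 and 3.41 FPKM in cortex and 3.31, 4.94 and 5.43 FPKM in hippocampus. Fcer1g, the shared signalling chain of Fc receptors, behaved in the same way at 3.86 and 4.87 FPKM and at 3.66, 4.45 and 5.94 FPKM. Fcgr3, a low-affinity receptor for IgG that signals through that chain, ran the other way at 4.35 and 3.17 FPKM in cortex and at 4.44, 3.26 and 3.54 FPKM in hippocampus. Receptor and chain thus differed in direction in every comparison with control.

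The lysosomal genes of the class were mixed. Ctss, the protease cathepsin S and the highest of the class, stood at 17.9 and 19.9 FPKM in cortex and at 21.0, 22.2 and 20.0 FPKM in hippocampus. Laptm5, a lysosomal membrane protein, stood at 6.74 and 6.45 FPKM and at 6.46, 7.28 and 7.87 FPKM. Cd68, a lysosomal glycoprotein used as a marker of phagocytic activity, stood at 1.84 and 1.07 FPKM and at 1.34, 1.37 and 1.96 FPKM. The Cd68 values come from 2 coding-sequence rows that exchange reads between conditions, 1.18 and 0.160 FPKM in control hippocampus against 0.000357 and 1.96 FPKM in DKO, so the sum is the steadier measure. Itgam, the CD11b chain of complement receptor 3 on microglia, stood at 2.29 and 2.31 FPKM in cortex and at 1.94, 2.57 and 2.60 FPKM in hippocampus.

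Complement genes were led by the chains of C1q. C1qa stood at 12.2 FPKM in controls and 9.80 FPKM in TRF2-depleted cortex, and at 12.6, 12.7 and 14.4 FPKM in control, TRF2-depleted and DKO hippocampus. C1qc stood at 13.1 and 11.6 FPKM in cortex and at 11.5, 13.1 and 15.3 FPKM in hippocampus. C1qb was present at lower FPKM than the other chains, at 4.85 and 5.18 FPKM in cortex and at 6.91, 6.58 and 8.31 FPKM in hippocampus. All 3 chains were highest in DKO hippocampus, and C1qa and C1qc were lower in TRF2-depleted than in control cortex.

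The later components were scarce. C4b, the substrate cleaved after C1 binds, stood at 1.28 and 1.24 FPKM in cortex and at 2.93, 3.07 and 2.88 FPKM in hippocampus. C3, the central component of all complement pathways, stayed under 0.2 FPKM in every condition, with 0.129 and 0.0408 FPKM in cortex and 0.0795, 0.174 and 0.173 FPKM in hippocampus. No ratio was formed for C3.

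Activated genes were present chiefly through those that other brain cells also make. Apoe, the lipid carrier that astrocytes produce in bulk, stood at 371 and 317 FPKM in cortex and at 526, 541 and 620 FPKM in hippocampus. Cd9, a tetraspanin also found in oligodendrocytes, stood at 17.6 and 19.9 FPKM and at 22.1, 21.9 and 18.6 FPKM. Lpl, the lipoprotein lipase that neurons of the hippocampus also express, stood at 1.37 and 1.96 FPKM in cortex and at 7.47, 8.46 and 6.99 FPKM in hippocampus.

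Spp1 (osteopontin) stood at 2.98 and 3.16 FPKM in cortex and at 2.60, 2.90 and 3.18 FPKM in hippocampus. Axl, a receptor tyrosine kinase related to Mertk, stood at 4.31 and 3.94 FPKM and at 4.65, 4.80 and 5.01 FPKM, and Csf1, the ligand of Csf1r, at 2.55 and 2.44 FPKM and at 3.81, 3.62 and 3.92 FPKM. Genes of activated microglia that resting brain hardly expresses were near the floor of the tables. Itgax, the CD11c integrin chain, ran from 0.0157 to 0.0842 FPKM over all 5 pooled values, and Clec7a, the beta-glucan receptor dectin, from 0.0280 to 0.122 FPKM. Cst7, a cathepsin inhibitor, is listed at 0 in control cortex and stood at 0.190 FPKM in TRF2-depleted cortex and at 0.0808, 0.261 and 0.139 FPKM in hippocampus. No test was made for these 3 genes.

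**Figure D1:**
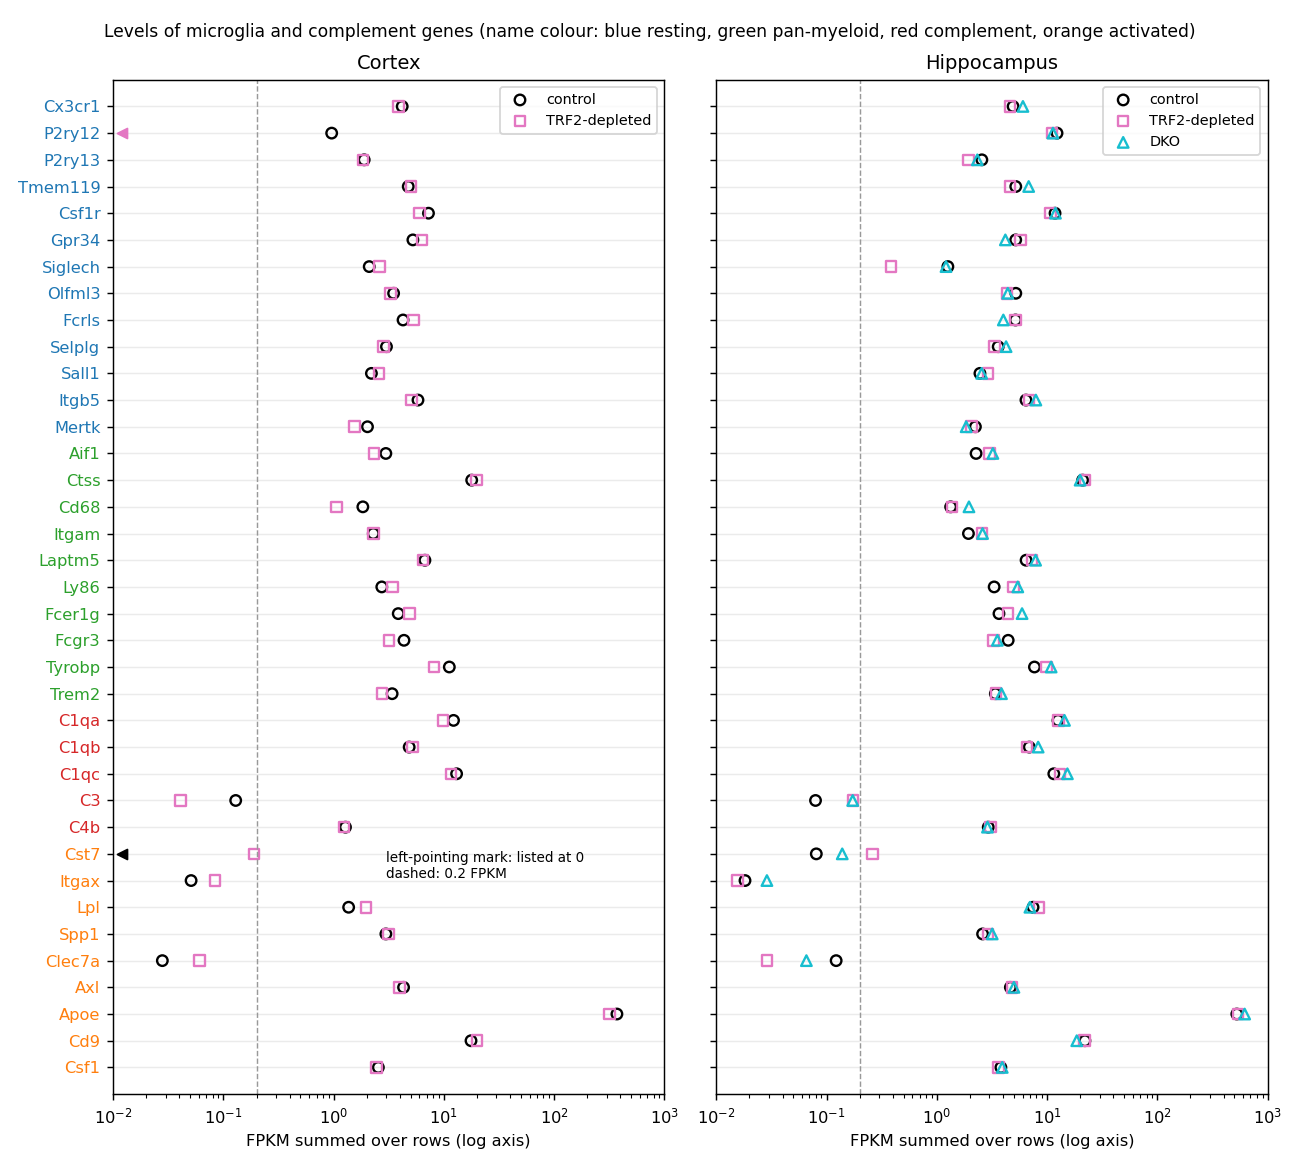
Summed FPKM (log axis) of the 37 genes in the pooled values of cortex (control, TRF2-depleted) and hippocampus (control, TRF2-depleted, DKO), with left-pointing marks for values listed at 0 and a dashed line at 0.2 FPKM. Symbols of a gene mostly sit close together, while P2ry12 is listed at 0 in TRF2-depleted cortex and Siglech lies apart at 0.383 FPKM in TRF2-depleted hippocampus.

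In TRF2-depleted cortex no gene of the set passed the authors' test against control. Of 25 genes tested 0 were called, where 0.323% of all genes tested were called, and 2 had an unadjusted p under 0.05, where 6.6% of all genes did. Both of these were lower in the TRF2-depleted group, as were 4.46% of all genes at that p, beside 2.14% higher. Apoe had a log2 ratio of -0.23 (p = 0.0139, q = 0.284 in the authors' deposited table) and C1qa a log2 ratio of -0.32 (p = 0.0459, q = 0.457 in the authors' deposited table). Fcgr3 and Tyrobp each had a log2 ratio of -0.46, with p of 0.0739 and 0.107 in the authors' deposited table.

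By sign, 13 of the 32 genes with a cortical ratio were higher and 19 lower in the TRF2-depleted group, where 45.9% of all genes were higher and 54.1% lower. Their median log2 ratio was -0.06, beside -0.02 over all genes. The class medians were -0.06 for resting, -0.18 for pan-myeloid, -0.11 for complement and 0.01 for activated genes, and the mean of the resting genes was 0.00. Oligodendrocyte markers had a cortical median log2 ratio of -0.28 with 6 of 8 lower, and endothelial markers one of 0.22 with 6 of 8 higher, so the class medians of the microglia genes lay within the range of these other cell types.

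In TRF2-depleted hippocampus the resting and pan-myeloid genes leaned in opposite directions, without any gene passing the test. Of 31 genes tested 0 were called, where 0.183% of all genes were, and 0 had an unadjusted p under 0.05, where 5.21% of all genes did (2.55% higher and 2.66% lower). Ly86 came nearest, with a log2 ratio of 0.58 (p = 0.0687, q = 0.886 in the authors' deposited table). Resting genes were lower in the TRF2-depleted group for 10 of 13, with a median log2 ratio of -0.11, where 48.4% of all genes were lower. Pan-myeloid genes were higher for 9 of 10, with a median of 0.23, where 51.6% of all genes were higher. Fcgr3 was the exception. The sums of Cd68 and Trem2 were nearly level, with log2 ratios of 0.04 and 0.02. The tested row of Trem2 was lower, at 3.21 FPKM in controls and 2.97 FPKM in the TRF2-depleted group.

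The complement and activated classes each had a median of 0.04 on the log2 scale in that comparison. Over the 34 genes with a ratio, 20 were higher and 14 lower, with a median log2 ratio of 0.04 beside 0.01 over all genes. In the same pooled values all 8 choroid plexus markers and all 9 meningeal markers were higher in the TRF2-depleted group, with median log2 ratios of 0.71 and 0.62. Among these markers Ptgds alone was called, with 165 FPKM in controls and 265 FPKM in that group (q = 0.0301 in the authors' deposited table). Their part in the pan-myeloid values was not tested.

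In DKO hippocampus 8 of 10 pan-myeloid and 3 of 4 complement genes had higher values than in control, and no gene passed the threshold. Of 32 genes tested 0 were called, where 0.204% of all genes were, and 6 had an unadjusted p under 0.05, where 7.18% of all genes did. Of the 6, 5 were higher and 1 lower in DKO, beside 4.05% and 3.13% of all genes. Ly86 was higher with a log2 ratio of 0.71 (p = 0.0171, q = 0.751 in the authors' deposited table) and C1qc with one of 0.41 (p = 0.0222, q = 0.803 in the authors' deposited table). Tmem119 was higher by a log2 ratio of 0.39 (p = 0.0289, q = 0.846 in the authors' deposited table), Cx3cr1 by 0.30 (p = 0.042 in the same table) and Itgb5 by 0.30 in summed FPKM (p = 0.0362 for its tested row). The sixth was Csf1, whose tested row was 3.67 FPKM in controls and 2.81 FPKM in DKO (p = 0.0421 in the authors' deposited table) while its sum over rows, 3.81 and 3.92 FPKM, did not follow.

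Over the set 22 of 34 genes were higher in DKO and 12 lower, with a median log2 ratio of 0.19. Pan-myeloid genes were higher in DKO than in control for 8 of 10, with a median log2 ratio of 0.46, where 52.8% of all genes were higher, 47.2% were lower and the median of all genes was 0.02. Fcer1g had a log2 ratio of 0.70 (p = 0.0573 in the authors' deposited table), Cd68 one of 0.55, Aif1 one of 0.51 and Tyrobp one of 0.50. The exceptions were Fcgr3 and Ctss, with log2 ratios of -0.33 and -0.08. Complement genes had a median of 0.23 and were higher for 3 of 4, with C4b at -0.02. Resting genes were divided, 6 higher and 7 lower with a median of -0.06, since Tmem119, Cx3cr1, Itgb5 and Selplg stood above control and Fcrls, Gpr34, Mertk and Olfml3 below it.

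All 8 choroid plexus markers were lower in DKO than in control, and Ttr, Kl, Sostdc1 and Clic6 fell with a q of 0.0301 each in the authors' deposited table. Meningeal markers were higher in both, for 8 of 9 genes in DKO with a median log2 ratio of 0.47, and Ptgds was called there too. Both comparisons use the same control values, so their likeness is not independent, and the part of the choroid plexus and meningeal markers in the pan-myeloid values was not tested. Border macrophage markers had a median log2 ratio of 0.43 in DKO against control, at a summed level of 3.94 FPKM, and of -0.05 in TRF2-depleted hippocampus.

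**Figure D2:**
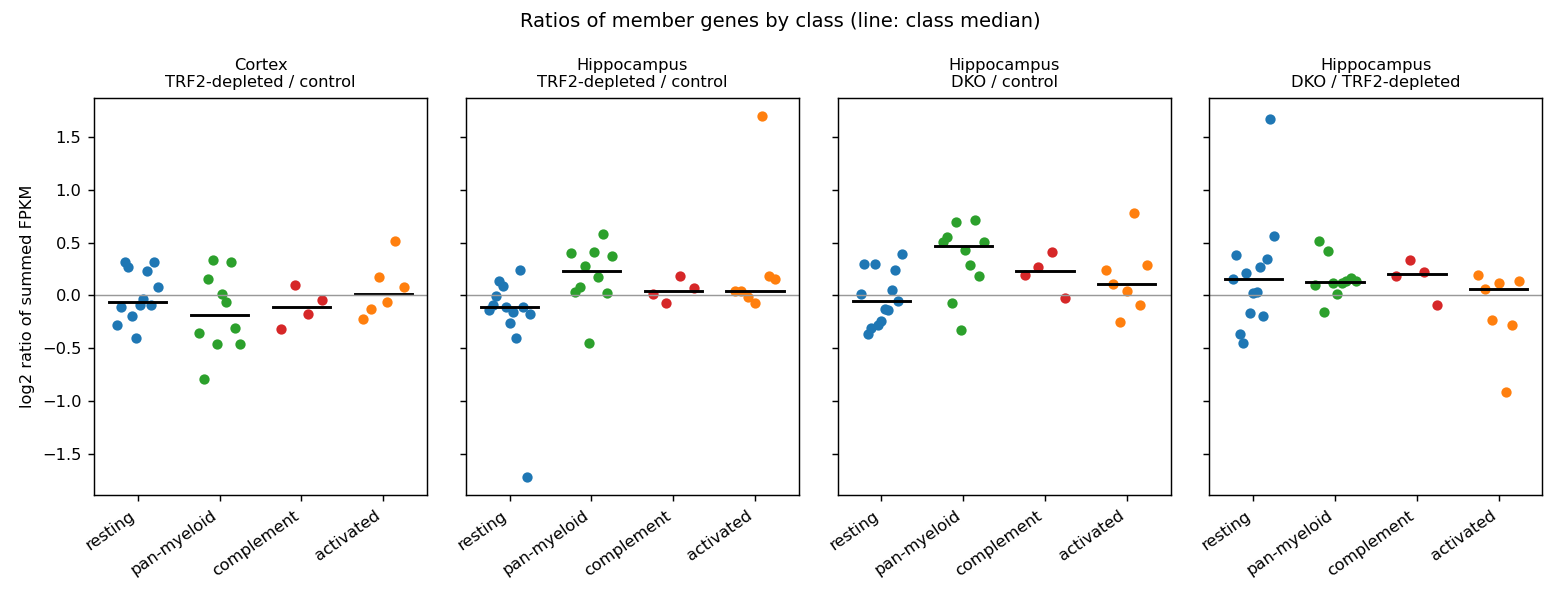
Log2 ratios of summed FPKM of the single genes (points) by class in the 4 comparisons, with a black line at each class median. Pan-myeloid genes have medians of 0.23 and 0.46 in the 2 hippocampal comparisons with control and -0.18 in cortex, and the 2 points farthest from 0 in TRF2-depleted hippocampus are Siglech (-1.72) and Cst7 (1.69).

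DKO and TRF2-depleted hippocampus were also set against each other. Of 32 genes tested 0 were called, where 0.153% of all genes were, and 3 had an unadjusted p under 0.05, where 5.08% of all genes did. Of the 3, 2 were higher and 1 lower in DKO, beside 3.06% and 2.03% of all genes. Tmem119 had the smallest q of the set in the hippocampus table, with 4.61 FPKM in TRF2-depleted and 6.82 FPKM in DKO hippocampus, a log2 ratio of 0.56 (p = 0.0025, q = 0.378 in the authors' deposited table). Cx3cr1 followed with a log2 ratio of 0.39 (p = 0.00865, q = 0.598 in the authors' deposited table). Lpl was lower in DKO, with a log2 ratio of -0.28 (p = 0.0411 in the authors' deposited table).

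By sign, 25 of 34 genes were higher in DKO than in the TRF2-depleted group, with a median log2 ratio of 0.13 beside 0.01 over all genes, of which 51.4% were higher and 48.6% lower. Resting genes had a median of 0.15 with 9 of 13 higher, pan-myeloid genes one of 0.13 with 9 of 10 higher, and complement genes one of 0.21 with 3 of 4 higher. Activated genes had a median of 0.06 and a mean of -0.13, which differ in sign. Siglech, at 0.383 and 1.21 FPKM and untested, had the largest log2 ratio of the set in this comparison, 1.66. Fcrls and Gpr34 were again lower in DKO, with log2 ratios of -0.36 and -0.45 (p = 0.0712 and 0.278 in the authors' deposited table).

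**Figure D3:**
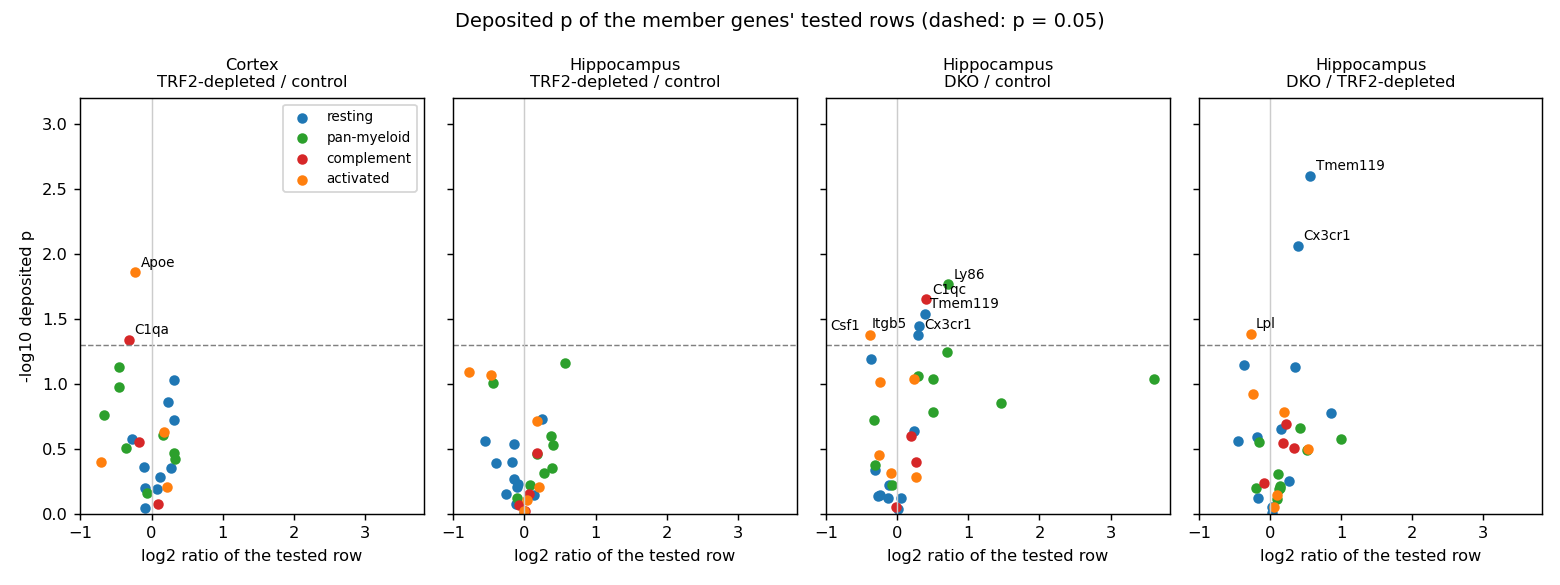
Log2 ratio of the tested row of each gene against -log10 of the deposited p in the 4 comparisons, coloured by class, with a dashed line at the unadjusted threshold and names for the genes above it. There are 2 genes above the line in cortex, 0 in TRF2-depleted against control hippocampus, 6 in DKO against control and 3 in DKO against TRF2-depleted; the point far to the right in DKO against control is the tested row of Cd68, whose other row goes the other way.

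The sizes of the ratios can be set beside those that the authors' test called. For this, 1 tested row per gene, the one of largest mean FPKM, was taken where that mean was 2 to 15 FPKM. The smallest absolute log2 ratio called among these rows was 0.38 in cortex and 0.69 in TRF2-depleted hippocampus. It was 0.76 in DKO against control and 0.60 in DKO against TRF2-depleted. The largest absolute log2 ratios of microglia and complement rows in that range were 0.71, 0.78, 0.71 and 0.85. These came from rows of Axl in the first pair, Ly86 in the next and Itgb5 in the last. None of these rows was called, although 3 of the 4 exceeded the smallest called ratio of their comparison. Axl and Itgb5 have further rows. Summed over rows, Axl had log2 ratios of -0.13 in cortex and 0.04 in TRF2-depleted hippocampus, and Itgb5 one of 0.21 in DKO against TRF2-depleted. Their row ratios are therefore not those of the gene.

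Resting and activated genes were set against each other as the difference of their median log2 ratios. The difference was -0.07 in cortex, -0.16 in TRF2-depleted hippocampus, -0.16 in DKO against control and 0.09 in DKO against TRF2-depleted. A negative value means that resting genes stood lower relative to activated ones. The cortical sign depended on the genes counted. With Trem2, Tyrobp and Cd68 placed among the activated genes the cortical value became 0.069, and with the highest row of each gene in place of the sum DKO against control became 0.038. Without Apoe, Cd9, Csf1, Lpl and Axl, which other cells also make, TRF2-depleted hippocampus gave -1.04, a value that rests on Spp1 and the barely detected Cst7. Cst7 also counts in the activated medians of the hippocampal comparisons. At a minimum of 1 FPKM, which leaves Cst7 out, the differences were -0.15 in TRF2-depleted hippocampus, -0.13 in DKO against control and 0.066 in DKO against TRF2-depleted.

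The control tissues differed in some of these genes, as levels set side by side from tables normalized separately and without a test. Of the 33 genes kept in both, 23 were higher in control hippocampus and 10 in control cortex, with a median log2 ratio of 0.14 for hippocampus over cortex, beside 0.11 and 58.9% higher over all genes. P2ry12 was 12.8-fold higher in hippocampus, within the limits of its shared locus, Lpl was 5.45-fold, C4b 2.29-fold and Csf1r 1.63-fold higher. Resting genes were higher in hippocampus for 11 of 13, whereas pan-myeloid genes were higher there for 4 of 10. Tyrobp, at 11.2 FPKM in cortex and 7.69 FPKM in hippocampus, and Siglech, at 2.10 and 1.26 FPKM, were the genes most shifted towards cortex.

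**Figure D4:**
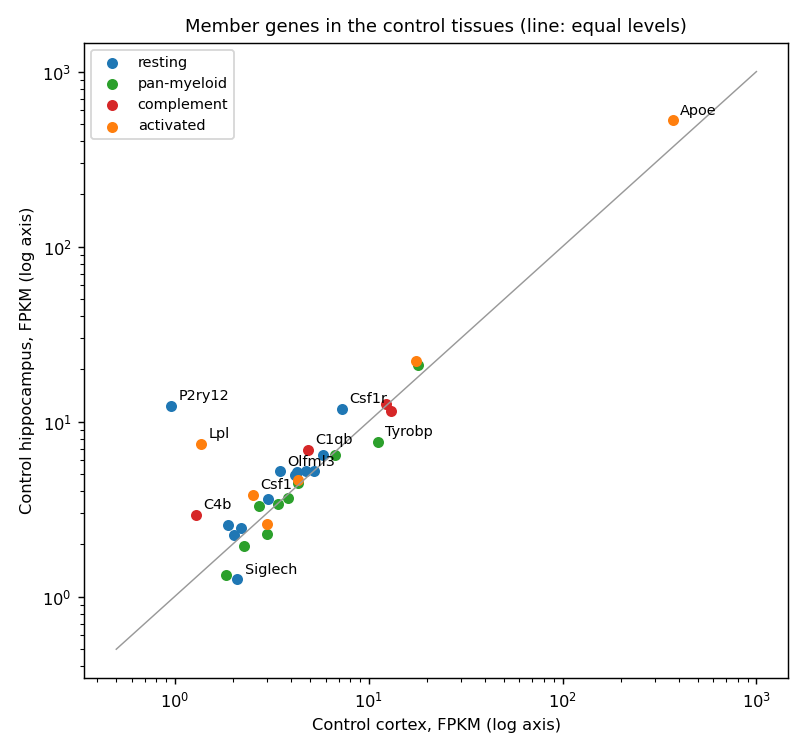
FPKM of the 33 genes in control cortex (x axis) and control hippocampus (y axis), both on log axes, coloured by class, with a line of equal levels. Most points lie near the line, P2ry12, Lpl and C4b lie above it, and Siglech and Tyrobp lie below it.

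Genes that act with the set were examined as further lists. Of 26 other complement genes 18 were kept in cortex and 19 in hippocampus. Only 5 were tested in cortex and 7 in each hippocampal comparison, and 0 of these were called, where between 0.153% and 0.323% of all genes tested were called. At an unadjusted p under 0.05 there were 1 in cortex and 3 in TRF2-depleted against control hippocampus. There was 1 in DKO against control and 1 in DKO against TRF2-depleted. In that order of comparisons 6.6%, 5.21%, 7.18% and 5.08% of all genes tested had such a p. In hippocampus Csmd1, a neuronal membrane inhibitor of complement, stood at 4.59 FPKM in controls and 2.81 FPKM in the TRF2-depleted group (p = 0.00845, q = 0.595 in the authors' deposited table). Cd59a, which blocks the membrane attack complex, stood at 1.53 and 2.61 FPKM there (p = 0.0186, q = 0.762 in the authors' deposited table). Serping1, the inhibitor of the C1 proteases, stood at 1.51 FPKM in controls and 2.57 FPKM in DKO (p = 0.0145, q = 0.721 in the authors' deposited table).

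Of 14 listed transcription factors of myeloid cells 7 were tested in each comparison, and of 21 ligands, partners and restraints of microglia between 10 and 12 were. Of these 0 were called, beside the same 0.153% to 0.323% of all genes. At an unadjusted p under 0.05 the counts follow the order cortex, TRF2-depleted hippocampus, DKO against control and DKO against TRF2-depleted. There were 1, 2, 1 and 1 factors and 0, 1, 1 and 1 of the other list. Of all genes tested 6.6%, 5.21%, 7.18% and 5.08% had such a p. Spi1, the PU.1 gene, stood at 0.657 and 0.731 FPKM in cortex and at 0.986, 1.18 and 0.916 FPKM in hippocampus, and Irf8, its partner, at 0.635 and 0.784 FPKM and at 1.16, 0.518 and 1.00 FPKM. Maf, a macrophage transcription factor also used in other cells, stood at 2.25 FPKM in controls and 3.53 FPKM in TRF2-depleted hippocampus (p = 0.00395, q = 0.446 in the authors' deposited table). Bhlhe40, a transcription factor of activated microglia that neurons also express, stood at 20.7 FPKM in controls and 15.2 FPKM there (p = 0.00515, q = 0.494 in the authors' deposited table). Cx3cl1, the neuronal ligand of Cx3cr1, stood at 134 and 119 FPKM in cortex and at 89.3, 81.0 and 96.4 FPKM in hippocampus. Ligand and receptor thus followed the same order of the 3 hippocampal conditions. Pros1, a ligand of Mertk, stood at 1.62, 2.55 and 2.45 FPKM in hippocampus (p = 0.01 for TRF2-depleted and 0.0125 for DKO against control in the authors' deposited table), while Mertk itself ran 2.24, 2.07 and 1.85 FPKM.

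Of 23 listed inflammatory genes only 3 were tested in cortex and 4 in each hippocampal comparison, and 0 were called, beside the same shares of all genes. At an unadjusted p under 0.05, in the same order of comparisons, there were 2, 1, 1 and 0, beside 6.6%, 5.21%, 7.18% and 5.08% of all genes. Il1b, Tnf and Il6 were under 0.2 FPKM in every condition. Myd88, the adapter of Toll-like and interleukin receptors, stood at 0.845 FPKM in control, 1.81 FPKM in TRF2-depleted and 1.67 FPKM in DKO hippocampus (p = 0.00805 and 0.00905 against control in the authors' deposited table, with q of 0.585 and 0.606). Ptgs2, which excitatory neurons also express, stood at 5.25 FPKM in controls and 3.83 FPKM in TRF2-depleted cortex (p = 0.00335, q = 0.141 in the authors' deposited table). Il18, a cytokine of the interleukin family, went the other way in the same comparison, with 7.97 FPKM in controls and 11.7 FPKM in the TRF2-depleted group (p = 0.0159, q = 0.302 in the authors' deposited table). By sign, 9 of 13 inflammatory genes with a ratio were higher there, where 45.9% of all genes were higher. Their median log2 ratio was only 0.02. In TRF2-depleted hippocampus 7 of 15 were higher than in control, with a median of -0.07, where 51.6% of all genes were higher. In DKO 8 of 14 were higher than in control and 6 of 14 higher than in the TRF2-depleted group. Their medians were 0.02 and -0.04, where 52.8% and 51.4% of all genes were higher.

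Of the other genes known from disease-associated microglia, 16 of 21 kept had higher values in TRF2-depleted hippocampus, with a median log2 ratio of 0.31, where 51.6% of all genes were higher. Of 13 tested 0 were called, beside 0.183% of all genes, and 3 had an unadjusted p under 0.05, all higher, beside 5.21% of all genes. The choroid plexus and meningeal markers, all higher in the same comparison, are described above, and their part in these values was not tested. Ctsl (cathepsin L) stood at 15.7 and 19.6 FPKM (p = 0.0217, q = 0.803 in the authors' deposited table) and Cd63, a lysosomal tetraspanin, at 23.9 and 30.4 FPKM (p = 0.0318, q = 0.858 in the same table). In DKO against control 16 of 21 were higher, with a median of 0.10, and in cortex 10 of 18 with a median of 0.02. In DKO against TRF2-depleted hippocampus 8 of 21 were higher, with a median of -0.10. Of all genes 52.8%, 45.9% and 51.4% were higher in these comparisons. In the same order 0 were called of 11, 11 and 13 tested, beside 0.204%, 0.323% and 0.153% of all genes. An unadjusted p under 0.05 was found for 0, 0 and 1, beside 7.18%, 6.6% and 5.08% of all genes.

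**Figure D5:**
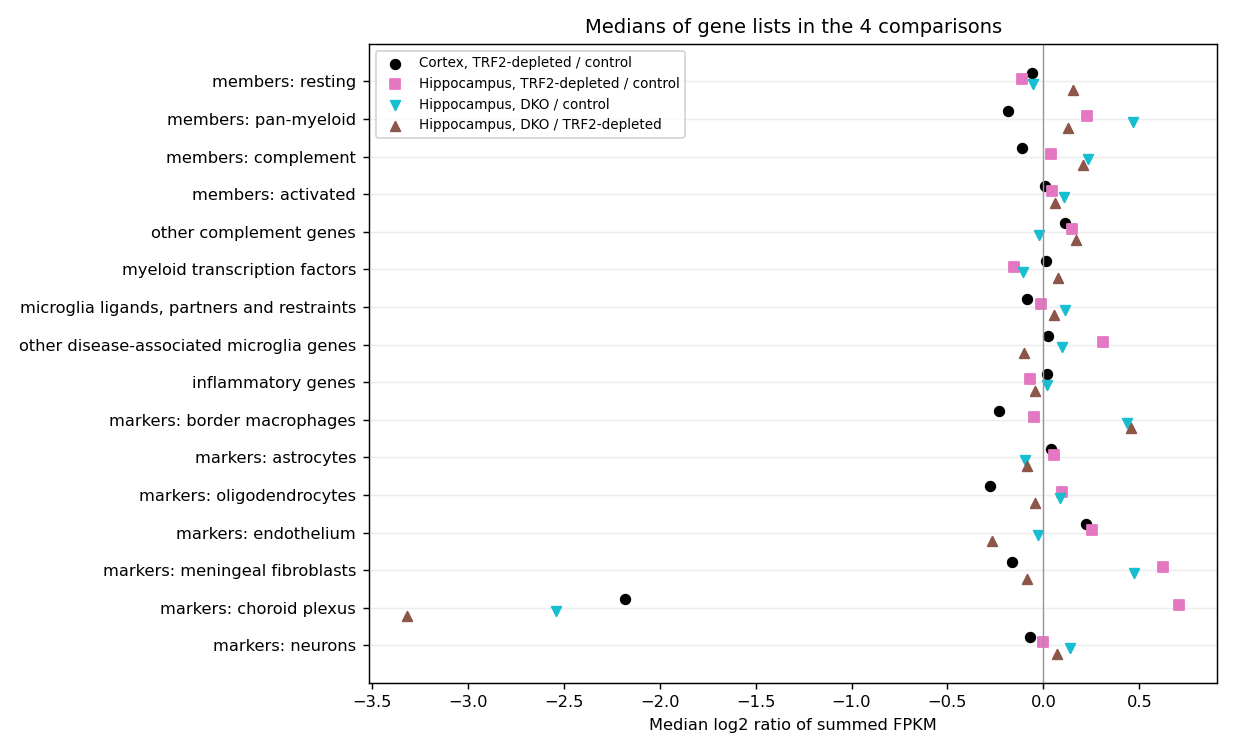
Median log2 ratio of summed FPKM of the 4 classes and of other gene lists (rows) in the 4 comparisons (symbols). The classes lie between -0.18 and 0.46, choroid plexus markers lie far to the left in cortex and in both DKO comparisons, and meningeal markers lie to the right in both hippocampal comparisons with control.

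Myo1f, a class I myosin best known from immune cells, was among the few genes of the tables that passed the authors' test and was set beside the myeloid genes for that reason. It stood at 1.45 FPKM in controls and 5.78 FPKM in TRF2-depleted cortex (q = 0.00864 in the authors' deposited table), and at 0.360, 5.75 and 6.76 FPKM in control, TRF2-depleted and DKO hippocampus (q = 0.0301 for each against control in the authors' deposited table). No tested gene of the microglia set had a ratio of summed FPKM of that size. Itgam and Aif1, which also mark myeloid cells, stood at 2.29 and 2.31 FPKM and at 2.98 and 2.33 FPKM in cortex. In hippocampus Itgam stood at 1.94, 2.57 and 2.60 FPKM and Aif1 at 2.27, 3.01 and 3.23 FPKM. Both were lowest in control hippocampus, as was Myo1f, with smaller ratios, but in cortex Aif1 was lower in the TRF2-depleted group. Other genes of the set went the other way, such as Fcgr3 at 4.44, 3.26 and 3.54 FPKM in hippocampus. Of 10 pan-myeloid genes 9 were higher than control in TRF2-depleted and 8 in DKO hippocampus, and 4 in TRF2-depleted cortex. Of 13 resting genes 3 were higher than control in TRF2-depleted and 6 in DKO hippocampus. Which cells the Myo1f values come from was not tested.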

How the data were processed

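Bulk RNA was sequenced from cortex and hippocampus. Per the submitters' processing notes the tools were CASAVA 1.8, TopHat2, Cufflinks and Cuffdiff on mm10. Other versions, settings and gene annotation were not given in the sources used here. Values were deposited as FPKM per coding-sequence row, 1 per condition, which the authors pooled from the samples, per the file headers. Each row also carries a deposited p-value and q-value from the authors. Sample depth is unknown, and the 2 tables were normalized separately.

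FPKM were summed over the rows of each gene, and log2 ratios were formed without a pseudocount for genes with at least 0.2 FPKM in 1 condition and above 0 in both. The deposited p and q of a gene come from the tested row of largest mean FPKM. No p was computed from samples, and in the alternatives a log2 value was taken as moved when it differed by 0.1 or more. In cortex the deposited q called 29 of 9536 tested rows, and a Benjamini-Hochberg adjustment over those rows called 14. In the 3 hippocampal comparisons that adjustment called as many rows as the deposited q.

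The genes, classes and lists were chosen with earlier results of these data known. All 37 genes were named, with up to 4 called genes of each further list per comparison or else the 2 with the smallest p. Genes outside that rule (Spi1, Irf8, Il1b, Tnf, Il6, Ccr2, Cd3e, Med12l, Cx3cl1 in other comparisons, H2-Aa, H2-Ab1, S100a8, S100a9, Ngp, Camp) were picked after their values were seen. Promoter windows came from RefSeq (GRCm38.p6). Python 3.11.15, numpy 2.4.6, pandas 2.3.3 and matplotlib 3.10.9 were used, and the scripts were tested on simulated data. A result of the list of other complement genes that the rule would name is not reported here.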

Additional observations from a re-analysis of the deposited data

How the results depend on the processing

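Each value is the authors' pool of its samples, so no sample could be left out and no error of a median can be given. No paired analysis was possible because the values are pooled per condition and carry no replicate numbers. At an unadjusted p under 0.05 the members called went from 0 to 2 in cortex, 6 in DKO against control and 3 in DKO against TRF2-depleted hippocampus, and stayed at 0 in TRF2-depleted against control hippocampus. The 3 other ways of calling (a q of 0.1, an adjustment within the comparison, any tested row) gave 0 everywhere. The median over all members kept within 0.1 of its value in 27 of 28 alternatives, and was 0.033 in DKO against control with the highest row of each gene. The resting minus activated difference moved in 11 of 36 alternatives. In cortex it was 0.10 at a minimum of 5 FPKM, -0.17 with the highest row, 0.069 with Trem2, Tyrobp and Cd68 as activated genes and -0.21 for genes with 1 row, an alternative chosen after seeing the data. Without Apoe, Cd9, Csf1, Lpl and Axl it was -1.04 in TRF2-depleted hippocampus, -0.59 in DKO against control and 0.54 in DKO against TRF2-depleted. These values rest on Spp1 and Cst7 alone. Cst7 was under 0.2 FPKM in control and in DKO, at 0.0808 and 0.139 FPKM. In DKO against control the difference was -0.062 at 5 FPKM, 0.038 with the highest row and -0.27 with the 3 genes moved. In DKO against TRF2-depleted it was 0.35 for genes with 1 row. The cause was not tested. Of the class medians, the pan-myeloid one was 0.32 in DKO against control with 1 FPKM added, and at a minimum of 5 FPKM the cortical pan-myeloid median was -0.063 and the cortical resting median turned to 0.078, and the complement medians moved in 0 of 28 alternatives.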

Other observations

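A chain pair of MHC class II and a calgranulin pair, picked after their values were seen, had their highest values in TRF2-depleted hippocampus, at levels the authors did not test. H2-Aa, a chain of MHC class II, stood at 0.400, 1.21 and 0.491 FPKM in control, TRF2-depleted and DKO hippocampus, and at 0.796 and 1.00 FPKM in the cortical groups. H2-Ab1, its partner chain, stood at 0.0603, 0.553 and 0.328 FPKM in hippocampus and at 0.394 and 0.538 FPKM in cortex. S100a8, a calgranulin of neutrophils, is listed at 0 in both control tissues and in DKO, and stood at 0.555 FPKM in TRF2-depleted cortex and 1.11 FPKM in TRF2-depleted hippocampus. S100a9, its partner, is listed at 0 in cortex and in control hippocampus and stood at 0.516 FPKM in the TRF2-depleted and 0.0876 FPKM in the DKO group. The granulocyte markers Ngp and Camp were also highest with TRF2 depletion in hippocampus, but close to the floor. Ngp is listed at 0 in control hippocampus and reached 0.0674 FPKM with TRF2 depletion and 0.0278 FPKM in DKO. Camp reached 0.0609 FPKM with TRF2 depletion and is listed at 0 in the control and DKO hippocampus. Cortex ran the other way, with Ngp falling from 0.130 FPKM in controls to 0.0567 FPKM and Camp from 0.155 FPKM to a listed 0. The other 11 blood cell markers, these included, were each under 0.2 FPKM in every condition, and whether a single sample carries these levels cannot be seen from a pool.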
